A study of Drosophila melanogaster with 21 samples.

Results

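Adding knockdown of *Fsn* (*FBXO45*) to knockdown of *Cbp20* (*NCBP2*) in the neurons of *Drosophila* was assessed by comparing whole-head transcriptomes of flies with both knockdowns (*Cbp20/Fsn*) directly with those of flies with the *Cbp20* knockdown alone, without using the driver controls. The members of the comparison were the 6 libraries labelled with these genotypes, of 21 libraries in 7 groups of 3, and 10558 of 17559 genes had enough counts to be tested. The study knocked down fly homologs of genes in the human 3q29 deletion region, and the question here is what the second knockdown added to the first.

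*Cbp20/Fsn* flies carried the pan-neuronal driver *Elav-GAL4*, the KK-collection RNAi line 107112 against *Cbp20* and the GD-collection RNAi line 26577 against *Fsn*, and *Cbp20* flies carried *Elav-GAL4* with line 107112 only. The labels give the KK background to both groups. In both groups F1 females were reared at 25°C and RNA was taken from whole heads, so each value mixes neurons, where the driver acts, with glia, retina, fat body, muscle, blood cells and cuticle-forming cells, and the age of the flies was not given in the sources used here. *Cbp20/Fsn* flies came from a recombined *Elav-GAL4*; *Cbp20* stock crossed to the *Fsn* line, so the *Fsn* hairpin, its insertion, the GD chromosomes that came with it and the stock cannot be told apart in the direct comparison. *Fsn* heads (line 26577 alone, GD background) against Control GD heads (the GD host strain with the driver), and Control GD against Control KK (line 60100, the KK control, with the driver), share no library with the comparison and are given beside it. All 7 groups carried *Elav-GAL4* and were reared at 25°C. *Cbp20/dlg1* heads carried line 107112 with the GD line 41136 against *dlg1*, and the labels give them the KK background.

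*Fsn* encodes the F-box subunit of a ubiquitin ligase that works with the very large protein Highwire (*hiw*), and at fly motor synapses this ligase holds down the kinase Wallenda (*wnd*) and so restrains JNK signaling, synaptic growth and the injury response of axons. *Cbp20* and *Cbp80* form the nuclear complex that binds the cap of new transcripts and helps in splicing, export and small-RNA pathways.

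Each library held 21409824 to 25925738 counts in genes in *Cbp20/Fsn* and 19743063 to 28036570 in *Cbp20*, within the 17712938 to 28759171 of the 21 libraries. Counts that the counting program set aside as outside genes, ambiguous or non-unique came to 32.6 to 34.1% of all counts in *Cbp20/Fsn* libraries. In *Cbp20* libraries they came to 27.8 to 29.8%, and the groups did not overlap. Values are CPM, the gene's read count scaled by the library's TMM-adjusted total. Differentially expressed means a log2 fold change above 1 or below -1 with a Benjamini-Hochberg FDR under 0.05 in edgeR's quasi-likelihood test, and positive fold changes are higher in *Cbp20/Fsn*. Single libraries stood apart. Among genes higher in *Cbp20/Fsn*, replicate 2 lay over 1 log2 unit from both of its partners for 54 genes and replicate 3 for 20, and among genes lower in *Cbp20/Fsn* the *Cbp20* replicate 2 did so for 33. Results that rest on these libraries are given with and without them. Each library was a pool of heads, described in the study's methods as a biological replicate, and the p-values cover the spread between such pools.

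*Fsn* itself had 18.3, 16.3 and 20.2 CPM in *Cbp20/Fsn* heads, against 26, 27.9 and 27.5 CPM in *Cbp20* heads (log2 fold change -0.57, SE 0.081, FDR 3.61e-05). The 2 groups did not overlap and the level was 67.4% of that in *Cbp20* heads, a drop short of the fold threshold in RNA from whole heads. The same line alone gave 19.9, 17 and 19.4 CPM in *Fsn* heads, against 26.5, 29.7 and 27 CPM in Control GD heads (log2 fold change -0.56, SE 0.081, FDR 7.20e-05), and the difference between these 2 drops was -0.0096 (FDR 0.977). *Cbp20* had 5.95, 6.01 and 6.59 CPM in *Cbp20/Fsn* heads, against 5.08, 5.63 and 5.19 CPM in *Cbp20* heads (log2 fold change 0.22, SE 0.10, FDR 0.103), which did not pass the test, and both groups lay below Control KK (14.7, 14.3 and 14.5 CPM).

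The eye pigment transporter gene *w*, whose mini-white copy marks RNAi insertions, did not pass the test, with 816, 881 and 786 CPM in *Cbp20/Fsn* heads, against 844, 876 and 813 CPM in *Cbp20* heads (log2 fold change -0.028, SE 0.054, FDR 0.731), although adding line 26577 alone gave 219.9, 202 and 198 CPM in *Fsn* heads, against 39.5, 39 and 39.4 CPM in Control GD heads (log2 fold change 2.39). *Hsp70Bb*, a heat shock gene whose counts may be shared with its near-identical copies and with promoter sequence carried by RNAi vectors, had 271, 273 and 276 CPM in *Cbp20/Fsn* heads, against 202, 218 and 235 CPM in *Cbp20* heads (log2 fold change 0.32, SE 0.07, FDR 0.00205). In *Fsn* heads it had 78.2, 89.3 and 83.7 CPM, against 0.812, 0.746 and 0.860 CPM in Control GD heads. The body color gene *y* did not pass the test (log2 fold change -0.36, FDR 0.339), and *tio*, a zinc finger gene next to which KK insertions can lie, had 15.2, 14.3 and 15.6 CPM in *Cbp20/Fsn* heads, against 19, 20.8 and 18.6 CPM in *Cbp20* heads (log2 fold change -0.37, SE 0.10, FDR 0.00725).

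**Figure D1:**
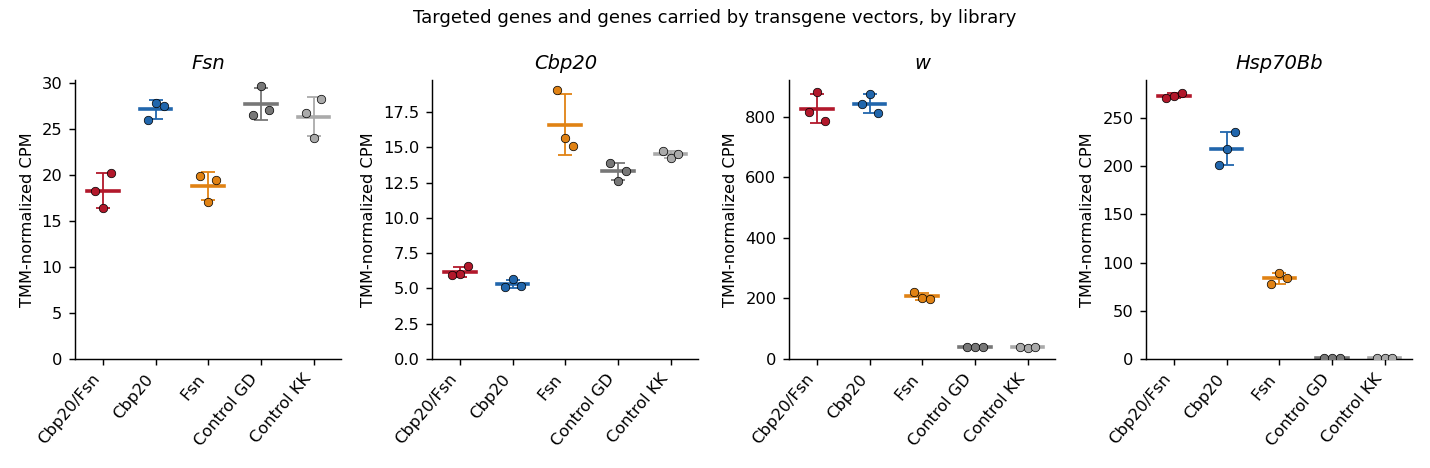
TMM-normalized CPM (y axes, from 0) of *Fsn*, *Cbp20*, *w* and *Hsp70Bb* in 5 groups (x axes), with 1 point per library, the mean as a bar and the SD as whiskers (n = 3). *Fsn* is lower in *Cbp20/Fsn* than in *Cbp20* and in *Fsn* than in Control GD, *Cbp20* is low in both groups that carry line 107112, *w* is near the same height in those 2 groups, and *Hsp70Bb* is somewhat higher in *Cbp20/Fsn*.

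In total, 445 genes were differentially expressed between *Cbp20/Fsn* and *Cbp20* heads (4.21% of the genes tested), 301 of them higher in *Cbp20/Fsn* (2.85%) and 144 lower (1.36%). With the FDR alone 3087 genes passed (29.2%), of which 1839 were higher (17.4%) and 1248 lower (11.8%), so most differences that passed the test were smaller than 2-fold, and a fit of the 6 libraries alone split them differently, with 1668 higher and 1714 lower. The median log2 fold change was 1.47 for the 301 genes and -1.59 for the 144, against 0.03 for all genes tested. The 3 and 3 libraries did not overlap for 245 of the 301 genes and 132 of the 144, where 25.8% and 21.5% of all tested genes did not overlap in these directions whether or not they were called. Leaving out 1 library at a time kept 332 to 394 of the 445 calls, and 249 (160 higher, 89 lower) were kept in all 6 such fits.

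The called genes were then placed among all 7 groups. For 208 of the 301 higher genes (69.1%) the mean of the *Cbp20* libraries lay below the mean of each of the 5 groups outside the comparison, against 24.3% of all tested genes, and for 117 of the 144 lower genes (81.3%) it lay above all 5, against 23.9%. The *Cbp20/Fsn* mean lay above all 5 for 122 of the 301 (40.5%, against 15.3%) and below all 5 for 40 of the 144 (27.8%, against 10.1%). These shares describe the called genes, whose choice already required the *Cbp20* mean to lie on one side.

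**Figure D2:**
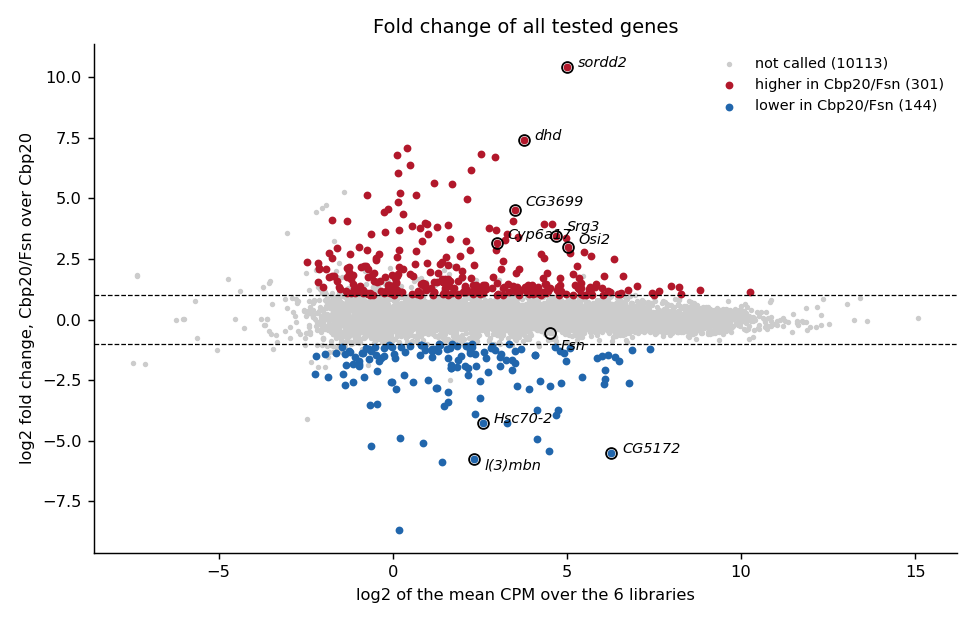
Log2 fold change of *Cbp20/Fsn* over *Cbp20* (y axis) against the log2 of the mean CPM over the 6 libraries (x axis) for 10558 genes; red points are the 301 genes higher in *Cbp20/Fsn*, blue points the 144 lower, grey points the 10113 others, and dashed lines mark the fold threshold. Named genes are circled; *sordd2* lies highest of them, *l(3)mbn* and *CG5172* lowest, and *Fsn* lies between the dashed lines.

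Several genes were close to silent in *Cbp20* heads and expressed evenly in all 3 *Cbp20/Fsn* libraries. *sordd2* (X:15796908-15799162) had 63.6, 63.4 and 65.9 CPM in *Cbp20/Fsn* heads, against 0.0438, 0 and 0.0980 CPM in *Cbp20* heads, that is 4605 counts against 3, a ratio of 1551 with a 95% counting interval of 530.3 to 7522. It was also expressed in *Cbp20/dlg1* heads at 23.5, 22.6 and 26.9 CPM, against 4.47, 1.01 and 7.18 CPM in *dlg1* heads (line 41136 alone), and stayed at or under 0.167 CPM in every *Fsn*, Control GD and Control KK library. *CG33177* (X:15081367-15082369) had 15.8, 14.4 and 13.4 CPM in *Cbp20/Fsn* heads, against 1.58, 1.13 and 0.588 CPM in *Cbp20* heads (log2 fold change 3.70, SE 0.26, FDR 1.03e-08), and its neighbor lncRNA:CR44661 (X:15079956-15080425) had 7.77, 9.28 and 8.35 CPM in *Cbp20/Fsn* heads, against 0.219, 0.206 and 0.392 CPM in *Cbp20* heads (log2 fold change 4.97, SE 0.27, FDR 4.60e-10). In *Cbp20/dlg1* heads the pair stood at 18.9, 19.5 and 15.4 CPM and 9.62, 11 and 8.91 CPM. All 3 genes were thus expressed in both double knockdowns and low in *Cbp20* heads.

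*CG3699* (X:946662-947500) had 22, 19.1 and 24.3 CPM in *Cbp20/Fsn* heads, against 1.23, 0.377 and 1.37 CPM in *Cbp20* heads (log2 fold change 4.54, SE 0.28, FDR 1.61e-09), and *Srg3* (3L:9443232-9446388) had 53.7, 45.5 and 42.6 CPM in *Cbp20/Fsn* heads, against 4.77, 3.98 and 4.26 CPM in *Cbp20* heads (log2 fold change 3.45, SE 0.31, FDR 2.06e-07). Both also rose with line 26577 alone, by log2 fold changes of 1.71 and 1.54 in *Fsn* over Control GD, and were higher in Control GD than in Control KK, by 2.32 and 1.24. *Sardh*, the sarcosine dehydrogenase of one-carbon metabolism, had 11.1, 15.1 and 11.7 CPM in *Cbp20/Fsn* heads, against 0.963, 0.583 and 1.32 CPM in *Cbp20* heads (log2 fold change 3.77, SE 0.25, FDR 4.49e-09) and did not pass in *Fsn* over Control GD (log2 fold change 0.41, FDR 0.0679), while Control GD exceeded Control KK by 1.70. *Osi2*, of the Osiris family of cuticle-associated membrane proteins, had 60.0, 58.3 and 55.7 CPM in *Cbp20/Fsn* heads, against 7.27, 8.10 and 6.47 CPM in *Cbp20* heads (log2 fold change 2.99, SE 0.10, FDR 5.65e-13). The Control GD libraries exceeded Control KK for *Osi2* as well (80.7, 83.9 and 86 CPM, against 21.4, 18.1 and 19.7 CPM).

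The P450 gene *Cyp6a17*, which in flies is tied to temperature preference, was high in the *Cbp20/Fsn* libraries and in no other group. It had 14.2, 14.5 and 14 CPM in *Cbp20/Fsn* heads, against 1.75, 1.23 and 1.81 CPM in *Cbp20* heads (log2 fold change 3.17, SE 0.14, FDR 4.83e-11), and the other 5 groups ran from 1.17 to 2.69 CPM. Against *Cbp20/dlg1* the log2 fold change was 2.53 (FDR 8.64e-10), and in *Fsn* over Control GD it was -0.53. *Dnaaf3*, an assembly factor for axonemal dynein arms that was chosen after its values were seen, was likewise high in *Cbp20/Fsn* heads, with 3.16, 4.33 and 3.66 CPM in *Cbp20/Fsn* heads, against 0.350, 0.274 and 0.343 CPM in *Cbp20* heads (log2 fold change 3.52, SE 0.27, FDR 1.89e-08) and 0.210, 0.153 and 0.300 CPM in *Cbp20/dlg1* heads (log2 fold change 4.04 of *Cbp20/Fsn* over it).

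**Figure D3:**
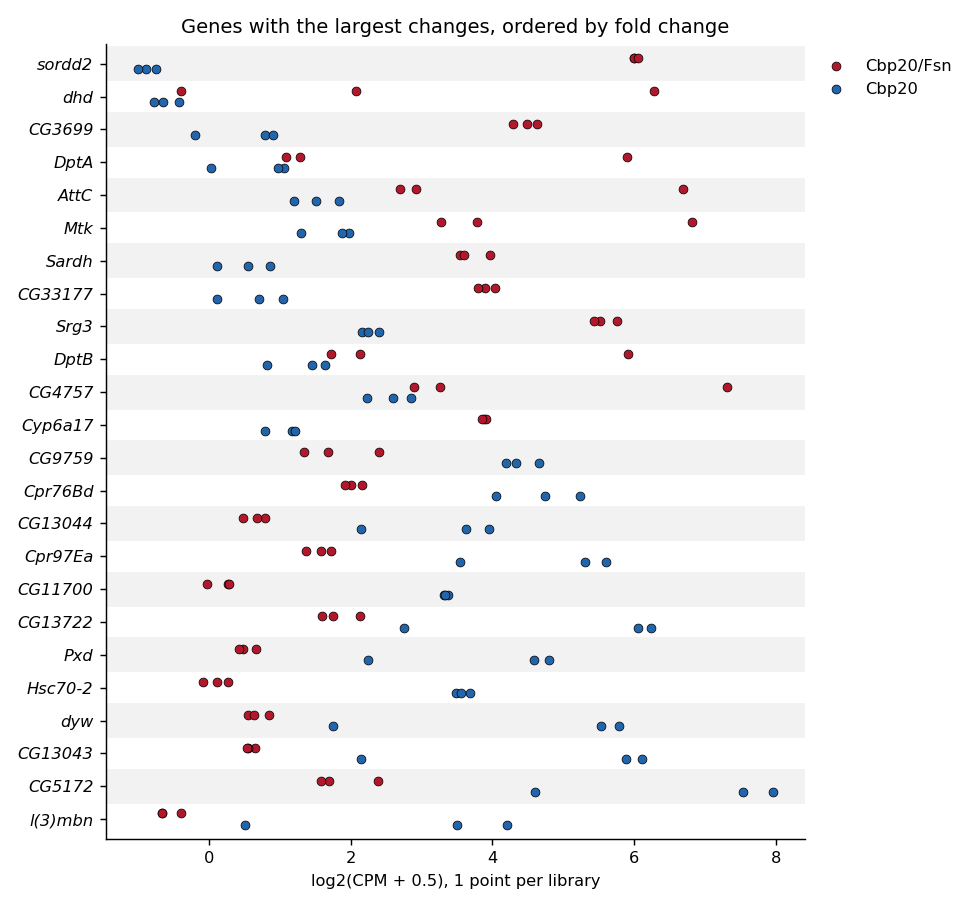
Log2(CPM + 0.5) for 24 genes, 12 that rose and 12 that fell most (y axis, ordered by fold change; no overlap between the groups, mean of 5 CPM or more); each point is 1 library, red for *Cbp20/Fsn* and blue for *Cbp20*. *sordd2*, *Srg3* and *Cyp6a17* have 3 close points in each group, the red points of *DptA*, *AttC*, *Mtk*, *DptB* and *CG4757* include 1 far to the right, and for *CG5172*, *CG13043*, *dyw* and *l(3)mbn* 1 blue point lies between the other 2 and the red ones.

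Genes of the cuticle, the chitin-based covering that head epidermis and other ectoderm secrete, were among the largest falls. Of 30 tested cuticle proteins of the Cpr family, which bind chitin, 8 fell and 2 rose (median log2 fold change -0.17), where 1.36% of all genes fell and 2.85% rose (median 0.03). *Cpr97Ea* had 2.79, 2.08 and 2.48 CPM in *Cbp20/Fsn* heads, against 48, 11.1 and 39.1 CPM in *Cbp20* heads (log2 fold change -3.73, SE 0.37, FDR 7.82e-07), *Cpr76Bd* had 3.53, 3.98 and 3.30 CPM in *Cbp20/Fsn* heads, against 37.1, 16.1 and 26.3 CPM in *Cbp20* heads (log2 fold change -2.87, SE 0.22, FDR 1.80e-08), and *Cpr62Bc* had 6.84, 5.83 and 5.42 CPM in *Cbp20/Fsn* heads, against 52.6, 23.6 and 44 CPM in *Cbp20* heads (log2 fold change -2.72, SE 0.23, FDR 7.91e-08). In each of these 3 genes the *Cbp20* replicate 2 was the lowest of its group yet above all *Cbp20/Fsn* libraries. *Cpr92F* fell without that gap, with 4.50, 3.89 and 3.79 CPM in *Cbp20/Fsn* heads, against 19.7, 17 and 15.5 CPM in *Cbp20* heads (log2 fold change -2.09, SE 0.16, FDR 1.70e-08). The other falls were *Cpr100A* (-1.70), *Cpr97Eb* (-1.30), *Cpr50Cb* (-2.28) and *Cpr11A*, which was at or under 0.135 CPM in *Cbp20/Fsn* libraries. *Cpr64Ac* went the other way, with 7.88, 7.51 and 7.68 CPM in *Cbp20/Fsn* heads, against 1.14, 0.515 and 0.833 CPM in *Cbp20* heads (log2 fold change 3.24, SE 0.21, FDR 2.32e-09), as did *Cpr72Ec*, with 128, 127 and 129 CPM in *Cbp20/Fsn* heads, against 62.8, 61.6 and 52.3 CPM in *Cbp20* heads (log2 fold change 1.12, SE 0.10, FDR 1.63e-07), and both also stood higher in Control GD than in Control KK (log2 fold changes 5.62 and 1.23). The count of falling Cpr genes was 9 to 12 with 1 library left out, 7 with *Cbp20/Fsn* replicate 2 alone and 6 with *Cbp20* replicate 2 alone.

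*CG5172* (X:17221442-17222651) had 4.72, 2.74 and 2.48 CPM in *Cbp20/Fsn* heads, against 248, 23.7 and 185 CPM in *Cbp20* heads (log2 fold change -5.49, SE 0.63, FDR 3.40e-06), *CG13043* (3L:16305225-16305870) had 1.08, 0.972 and 0.948 CPM in *Cbp20/Fsn* heads, against 68.4, 3.94 and 58.4 CPM in *Cbp20* heads (log2 fold change -5.43, SE 0.72, FDR 1.85e-05), *dyw* (X:2692732-2693886) had 0.966, 1.06 and 1.31 CPM in *Cbp20/Fsn* heads, against 54.6, 2.88 and 45.5 CPM in *Cbp20* heads (log2 fold change -4.94, SE 0.68, FDR 2.96e-05), and *l(3)mbn* had 0.260, 0.133 and 0.135 CPM in *Cbp20/Fsn* heads, against 18, 0.926 and 10.8 CPM in *Cbp20* heads (FDR 3.00e-05; few counts in *Cbp20/Fsn*, so no fold is given). In each of the 4 genes *Cbp20* replicates 1 and 3 were highest, *Cbp20* replicate 2 lay between them and the *Cbp20/Fsn* libraries, and the *Cbp20/Fsn* libraries were lowest. For *CG13043* the Control KK libraries had 2.07, 2.69 and 1.63 CPM, near the *Cbp20/Fsn* values. *CG13722*, *Pxd* (a peroxidase), *CG13044* and *CG9759* fell by 3.95, 4.28, 3.23 and 2.72 on the log2 scale, with FDRs of 4.01e-05, 2.66e-06, 3.01e-05 and 8.71e-06.

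Genes of chitin synthesis and remodeling were no fixed list and were chosen after their values were seen. More of those named here fell than rose. *Cht7*, *Cda4*, *reb*, *exp*, *obst-A* and *obst-B* were differentially expressed and lower, though *Cda4* and *obst-A* did not keep the call in every fit with 1 library left out. The chitinase gene *Cht5* had 3.75, 3.54 and 4.11 CPM in *Cbp20/Fsn* heads, against 80.6, 3.22 and 66.5 CPM in *Cbp20* heads (log2 fold change -3.71, SE 0.64, FDR 0.000264), so the groups overlapped through *Cbp20* replicate 2. The chitin synthase gene *kkv* had 5.80, 5.21 and 5.64 CPM in *Cbp20/Fsn* heads, against 47.8, 14 and 34.5 CPM in *Cbp20* heads (log2 fold change -2.52, SE 0.29, FDR 3.13e-06), and the chitin deacetylase genes *serp* and *verm* fell by 1.58 and 1.45 on the log2 scale. The other chitin synthase gene, *Chs2*, was higher at a low level, with 0.743, 0.442 and 0.316 CPM in *Cbp20/Fsn* heads, against 0.263, 0.137 and 0.0980 CPM in *Cbp20* heads (log2 fold change 1.58, SE 0.46, FDR 0.0143), and *Idgf5*, of a chitinase-related family, rose, with 32.3, 32.3 and 27.2 CPM in *Cbp20/Fsn* heads, against 13.3, 13.1 and 14.7 CPM in *Cbp20* heads (log2 fold change 1.16, SE 0.12, FDR 1.03e-06). The chitinase genes *Cht2* (-0.15, FDR 0.222), *Cht10* (0.13, FDR 0.745) and *Cht11* (0.069, FDR 0.605) did not pass. In these bulk libraries fewer cells of a type and less RNA per cell cannot be told apart, and the part of fly age or of cuticle carried into the head preparation was not tested.

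A few genes fell evenly in all 3 libraries. *Hsc70-2*, an Hsp70-family cognate gene, had 0.706, 0.442 and 0.587 CPM in *Cbp20/Fsn* heads, against 10.7, 12.4 and 11.2 CPM in *Cbp20* heads (log2 fold change -4.28, SE 0.26, FDR 1.61e-09), and *CG11700* had 0.706, 0.486 and 0.722 CPM in *Cbp20/Fsn* heads, against 9.89, 9.50 and 9.60 CPM in *Cbp20* heads (log2 fold change -3.90, SE 0.24, FDR 2.13e-09). Both also differed between the host strains, where Control GD lay far below Control KK for *Hsc70-2* (log2 fold change -5.94; 18.6, 17.9 and 17.6 CPM in Control KK) and for *CG11700* (-4.70). lncRNA:CR40469 (X:122493-122706) had 15.8, 13.1 and 15.2 CPM in *Cbp20/Fsn* heads, against 47.6, 47.8 and 49.9 CPM in *Cbp20* heads (log2 fold change -1.72, SE 0.10, FDR 1.15e-09), with 0, 0.0746 and 0.0748 CPM in Control GD heads, against 45.6, 51 and 54.7 CPM in Control KK heads. For genes of this kind the KK and GD strains differ as the 2 knockdown groups do, and background and knockdown cannot be told apart.

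Of 26 tested antimicrobial peptides and related immune effectors, 15 rose and none fell (median log2 fold change 1.33, against 0.03), where 2.85% of all genes rose. The list summed to 1151, 2101 and 1019 CPM in *Cbp20/Fsn* heads, against 562, 563 and 620 CPM in *Cbp20* heads. The *Cbp20* libraries lay below every library of the other groups in this sum. *Cbp20/dlg1* heads had 1051, 1743 and 1322 CPM and Control KK heads 934, 900 and 1041 CPM. Among the Toll-regulated Bomanin and Daisho peptides, *Dso1* had 425, 484 and 369 CPM in *Cbp20/Fsn* heads, against 151, 159 and 189.9 CPM in *Cbp20* heads (log2 fold change 1.35, SE 0.15, FDR 2.48e-06), *BomT2* had 58.4, 61.1 and 52.1 CPM in *Cbp20/Fsn* heads, against 22.9, 22.4 and 24.5 CPM in *Cbp20* heads (log2 fold change 1.30, SE 0.14, FDR 1.22e-06), and *BomS2* had 133, 193 and 125 CPM in *Cbp20/Fsn* heads, against 70.9, 59.4 and 66 CPM in *Cbp20* heads (log2 fold change 1.20, SE 0.20, FDR 0.000186). The lowest *Cbp20/Fsn* library of each of these 3 was above the highest *Cbp20* library. *BomBc3*, *BomT1*, *BomBc2* and *Dso2* rose by log2 fold changes of 1.44, 1.69, 1.15 and 1.10, and *BomS2*, *BomBc2* and *Dso2* were below the fold threshold without *Cbp20/Fsn* replicate 2 (0.98, 0.98 and 0.86). The secreted peptidoglycan sensors *PGRP-SD*, with 16.7, 23.6 and 15 CPM in *Cbp20/Fsn* heads, against 4.77, 5.39 and 4.41 CPM in *Cbp20* heads (log2 fold change 1.91, SE 0.21, FDR 1.73e-06), and *PGRP-SB1* (1.73) rose with them, and they were 2 of the 3 risers among 27 tested immune receptor and signaling genes.

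The largest immune folds came from 1 library. *DptA*, an Imd-regulated Diptericin, had 1.93, 59.1 and 1.63 CPM in *Cbp20/Fsn* heads, against 0.525, 1.58 and 1.47 CPM in *Cbp20* heads (log2 fold change 4.09, SE 1.23, FDR 0.0187), *AttC* had 5.98, 102 and 7.09 CPM in *Cbp20/Fsn* heads, against 1.79, 3.09 and 2.35 CPM in *Cbp20* heads (log2 fold change 3.96, SE 1.0, FDR 0.00675), *Mtk* had 13.2, 112 and 9.17 CPM in *Cbp20/Fsn* heads, against 1.97, 3.43 and 3.18 CPM in *Cbp20* heads (log2 fold change 3.95, SE 0.78, FDR 0.00102), and *DptB* had 2.79, 59.6 and 3.88 CPM in *Cbp20/Fsn* heads, against 1.27, 2.61 and 2.25 CPM in *Cbp20* heads (log2 fold change 3.40, SE 1.01, FDR 0.0177). *Cbp20/Fsn* replicate 2 alone carried these heights, as it did for *IBIN*, *CecC*, *BomBc1*, *PGRP-SC2* and *CG4757*. Without it the log2 fold changes were 0.56 for *DptA*, 1.41 for *AttC*, 1.96 for *Mtk*, 0.67 for *DptB* and 0.55 for *CG4757*, of which only *Mtk* still passed. *DptA* and *DptB* also did not pass without *Cbp20* replicate 1, nor *BomBc1* and *CecC* without any 1 of the 3 *Cbp20* libraries, nor *IBIN* without *Cbp20* replicate 1 or 2. *Dro*, with 4.09, 170.4 and 3.61 CPM in *Cbp20/Fsn* heads, against 5.95, 9.40 and 11.2 CPM in *Cbp20* heads (log2 fold change 2.74, FDR 0.0459), turned to -1.19 without replicate 2 of *Cbp20/Fsn*, since the other *Cbp20/Fsn* libraries lay below *Cbp20*, and did not pass without any 1 of the *Cbp20* libraries. The list then had 5 risers in place of 15, 9 without *Cbp20* replicate 1 and 20 with *Cbp20/Fsn* replicate 2 alone. In *Fsn* over Control GD these peptides were lower, with log2 fold changes of -5.62 for *DptA*, -4.20 for *AttC*, -2.97 for *Mtk* and -4.04 for *DptB*. Of 10 tested Turandot and JAK-STAT genes, the stress peptides *TotA*, with 113, 148 and 197 CPM in *Cbp20/Fsn* heads, against 45.6, 47 and 37.6 CPM in *Cbp20* heads (log2 fold change 1.81, SE 0.34, FDR 0.000585), and *TotC* (1.72) rose in all 3 libraries. Of 18 tested heat shock genes *Hsp27* rose, with 6.32, 1.63 and 16.8 CPM in *Cbp20/Fsn* heads, against 1.75, 1.99 and 1.42 CPM in *Cbp20* heads (log2 fold change 2.24, SE 0.55, FDR 0.00549), and did not pass without *Cbp20/Fsn* replicate 3 (1.21), and *Hsc70-2* fell.

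Germline genes and cell cycle genes that rose did so mainly in 2 of the 3 *Cbp20/Fsn* libraries. The listed germline genes summed to 803, 841 and 1005 CPM in *Cbp20/Fsn* heads, against 918, 884 and 900 CPM in *Cbp20* heads. Only *Cbp20/Fsn* replicate 3 lay above the *Cbp20* libraries in that sum. The listed cell cycle genes summed to 604, 347 and 806 CPM in *Cbp20/Fsn* heads, against 340, 467 and 425 CPM in *Cbp20* heads. Of 26 tested germline and maternal genes 15 rose and none fell (median log2 fold change 1.67). Of 32 tested cell cycle and DNA replication genes 9 rose and none fell (0.89). Among all genes 2.85% rose and 1.36% fell, and their median was 0.03. The germline count leaves out *nos*, present as *nanos*, which was higher. By the FDR alone 15 of the 26 and 13 of the 32 were higher. A fit of the 6 libraries alone had 8 of 21 germline and 2 of 32 cell cycle genes higher by the FDR, where 1668 of 10134 genes were. *osk*, the maternal determinant of germ plasm, had 2.64, 0.0884 and 16.5 CPM in *Cbp20/Fsn* heads, against 0.131, 0.103 and 0.147 CPM in *Cbp20* heads (FDR 0.00635), and *yl*, the yolk protein receptor of oocytes, had 2.90, 0.0884 and 25 CPM in *Cbp20/Fsn* heads, against 0.131, 0.172 and 0.0490 CPM in *Cbp20* heads (FDR 0.00704). *dhd*, a thioredoxin of the female germline that lies on X, had 3.72, 0.265 and 76.9 CPM in *Cbp20/Fsn* heads, against 0.0875, 0.137 and 0.245 CPM in *Cbp20* heads (FDR 0.00383). None of the 3 passed without *Cbp20/Fsn* replicate 3. The *Cbp20* libraries held so few counts of these 3 genes that a fitted fold change depends on the prior count and is not given. In each of them replicate 3 was highest, replicate 1 next and replicate 2 near the *Cbp20* libraries. The cyclin gene *CycA* had 39.3, 2.39 and 60.7 CPM in *Cbp20/Fsn* heads, against 2.49, 10.6 and 13.6 CPM in *Cbp20* heads (log2 fold change 1.94, SE 0.66, FDR 0.0344), and its groups overlapped. Its call was lost without *Cbp20/Fsn* replicate 1 or 3 or *Cbp20* replicate 1 or 2, with log2 fold changes of 1.25 to 2.49 over the 6 fits with 1 library left out.

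The counts followed those libraries: the germline list had 4 risers without *Cbp20/Fsn* replicate 3, 11 without *Cbp20* replicate 1 and 0 with *Cbp20/Fsn* replicate 2 alone, and the cell cycle list had 0 without *Cbp20/Fsn* replicate 3, 6 without *Cbp20/Fsn* replicate 1, 14 without *Cbp20/Fsn* replicate 2, 2 without *Cbp20* replicate 1 and 0 with *Cbp20/Fsn* replicate 2 alone. With *Cbp20/Fsn* replicate 2 alone, 37 of the 445 called genes changed sign. None of 6 tested eggshell and follicle cell genes was differentially expressed, and their summed level was 5.76, 6.72 and 6.32 CPM in *Cbp20/Fsn*, against 6.26, 6.48 and 7.15 CPM in *Cbp20*. Whether body tissue entered some head preparations was not tested. The more even members were *exu*, with 3.72, 1.94 and 9.30 CPM in *Cbp20/Fsn* heads, against 0.832, 0.789 and 0.833 CPM in *Cbp20* heads (log2 fold change 2.60, SE 0.44, FDR 0.000209), *aub*, a piRNA-pathway Argonaute, with 3.61, 3.09 and 5.42 CPM in *Cbp20/Fsn* heads, against 1.93, 1.65 and 1.27 CPM in *Cbp20* heads (log2 fold change 1.31, SE 0.23, FDR 0.00027), and the mitotic kinase gene *aurA*, with 4.87, 2.78 and 6.91 CPM in *Cbp20/Fsn* heads, against 1.44, 2.06 and 2.30 CPM in *Cbp20* heads (log2 fold change 1.32, SE 0.24, FDR 0.000448; 0.99 to 1.60 with 1 library left out, the lowest without *Cbp20/Fsn* replicate 3). The groups did not overlap for these 3 genes. *Cdk1* did not pass (1.09, FDR 0.261), nor did the receptor gene *tor* (1.57, FDR 0.129), and *lok* (0.94, FDR 0.02) and *CycE* (0.91, FDR 0.0485) passed the FDR but not the fold threshold. Without *Cbp20/Fsn* replicate 2 the log2 fold changes of *lok* and *CycE* were 1.30 and 1.31 and passed, as did *Cdk1*, and *tor* passed without that library or without *Cbp20* replicate 2.

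**Figure D4:**
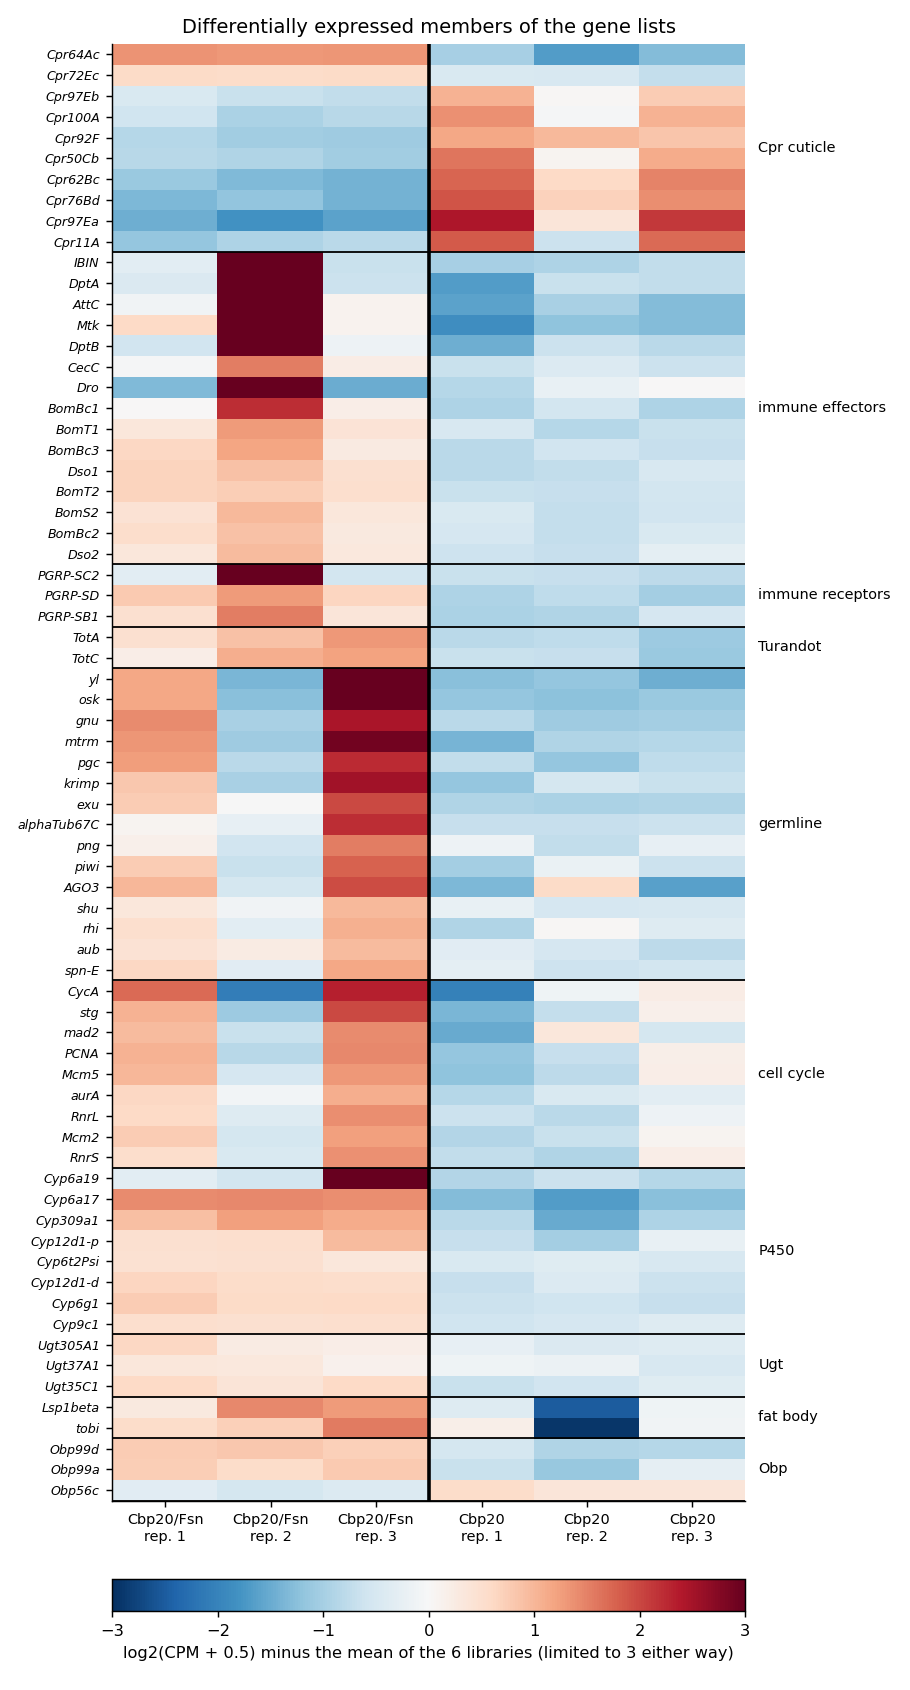
Log2(CPM + 0.5) of each of 70 differentially expressed members of 10 gene lists (rows) in the 6 libraries (columns), minus the mean of the 6, with red above it, blue below it and the color scale limited to 3 either way. Immune effectors are darkest in *Cbp20/Fsn* replicate 2, germline and cell cycle genes in *Cbp20/Fsn* replicates 1 and 3, falling Cpr genes in *Cbp20* replicates 1 and 3, and most P450 rows are even within each group.

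Of 76 tested cytochrome P450 genes, which oxidize foreign and endogenous compounds, 8 rose and none fell, where 2.85% of all genes rose and 1.36% fell. With the FDR alone 32 were higher and 5 lower, against 17.4% and 11.8% of all genes. *Cyp6g1*, known for insecticide resistance, had 99.3, 87.3 and 88.6 CPM in *Cbp20/Fsn* heads, against 37.4, 38.5 and 36 CPM in *Cbp20* heads (log2 fold change 1.30, SE 0.10, FDR 2.83e-08), *Cyp9c1* had 25.7, 25.1 and 25.9 CPM in *Cbp20/Fsn* heads, against 11.7, 12.5 and 13.7 CPM in *Cbp20* heads (log2 fold change 1.02, SE 0.076, FDR 1.63e-08), and *Cyp309a1* had 5.61, 7.25 and 6.59 CPM in *Cbp20/Fsn* heads, against 1.36, 0.652 and 1.22 CPM in *Cbp20* heads (log2 fold change 2.62, SE 0.40, FDR 7.34e-05). These groups did not overlap, but *Cyp9c1* fell short of the fold threshold without *Cbp20* replicate 1 (0.98). *Cyp12d1-d* (1.5) and *Cyp12d1-p* (1.81) are near-identical copies whose counts are uncertain, and *Cyp6a19* rested on replicate 3 of *Cbp20/Fsn* (1.49 without it, against 5.13). Of 30 tested glutathione S-transferases, *GstD9* rose, with 41, 39.5 and 37.1 CPM in *Cbp20/Fsn* heads, against 15.3, 19.7 and 17.3 CPM in *Cbp20* heads (log2 fold change 1.17, SE 0.083, FDR 1.07e-08), and 18 were higher and none lower by the FDR alone. Of 66 tested nuclear oxidative phosphorylation genes 4 were higher and none lower by the FDR, a smaller share higher than among all genes. Only *ATPsynepsilonL* was differentially expressed, and it did not keep the call in every fit with 1 library left out (log2 fold changes 1.13 to 1.59). Of 23 tested UDP-glycosyltransferases 3 rose (2 with any single library left out), among them *Ugt35C1*, with 29.9, 25.8 and 29.8 CPM in *Cbp20/Fsn* heads, against 12.1, 12.9 and 15.2 CPM in *Cbp20* heads (log2 fold change 1.09, SE 0.082, FDR 1.85e-08). In the summed CPM of the P450, glutathione S-transferase and UDP-glycosyltransferase lists the *Cbp20* libraries lay below every library of the other groups.

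Enzymes of intermediary metabolism named here were chosen after their values were seen, because they rose. *Sodh1*, a sorbitol dehydrogenase gene, had 88.7, 85.2 and 90.9 CPM in *Cbp20/Fsn* heads, against 14.6, 10.4 and 18.9 CPM in *Cbp20* heads (log2 fold change 2.61, SE 0.19, FDR 1.48e-08), and *Hao*, encoding a hydroxyacid oxidase, had 57.8, 52.5 and 59.5 CPM in *Cbp20/Fsn* heads, against 16.2, 13.1 and 17.7 CPM in *Cbp20* heads (log2 fold change 1.86, SE 0.14, FDR 1.52e-08). *Argl* (argininosuccinate lyase) and *Ass* (argininosuccinate synthase), at neighboring steps of arginine synthesis, rose by log2 fold changes of 1.72 and 1.39. The tyrosine-breakdown genes *Hpd*, with 231, 243 and 230.4 CPM in *Cbp20/Fsn* heads, against 107, 111 and 116 CPM in *Cbp20* heads (log2 fold change 1.08, SE 0.084, FDR 2.83e-08), and *hgo* (1.15) rose too. The purine synthesis gene *Paics* had 289, 287 and 257 CPM in *Cbp20/Fsn* heads, against 129, 107 and 136 CPM in *Cbp20* heads (log2 fold change 1.16, SE 0.12, FDR 1.38e-06), and the folate enzyme gene *pug* rose by 1.39. For *Sodh1* the *Cbp20* libraries were the low ones, since Control GD heads had 55.6, 65.6 and 55.3 CPM and Control KK heads 54.3, 49.1 and 53.2 CPM. The same held for *pug*, with 201, 203 and 223 CPM in Control KK heads. With line 26577 alone these 8 genes also passed the FDR as higher, with log2 fold changes in *Fsn* over Control GD of 1.35 for *Sodh1*, 0.90 for *Hao*, 1.08 for *Argl*, 1.09 for *Ass*, 0.29 for *Hpd*, 0.45 for *hgo*, 0.63 for *Paics* and 0.41 for *pug*.

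The summed level of the head fat body secreted proteins was 40358, 37865 and 36084 CPM in *Cbp20/Fsn* heads, against 22018, 20591 and 26623 CPM in *Cbp20* heads. The *Cbp20* libraries lay below every library of the other groups in this sum. Control KK heads had 47599, 50836 and 56937 CPM and Control GD heads 34872, 28718 and 33277 CPM. Of 20 tested genes 2 were past the fold threshold. By the FDR alone 8 were higher and none lower, against 17.4% and 11.8% of all genes, so that 12 did not pass. In *Fsn* over Control GD 8 listed genes were differentially expressed as higher and none as lower. The yolk protein gene *Yp1* had 15531, 14115 and 13202 CPM in *Cbp20/Fsn* heads, against 7224, 6963 and 8932 CPM in *Cbp20* heads (log2 fold change 0.89, SE 0.13, FDR 5.84e-05), and *Yp2* (0.83, FDR 0.00032), *Yp3* (0.64, FDR 0.00376), the transferrin gene *Tsf1* (0.79, FDR 0.000829) and the lipophorin gene *apolpp* (0.49, FDR 0.00643) were higher as well; these 5 were named after their values were seen. The storage protein gene *Lsp1beta* had 59.9, 132 and 119 CPM in *Cbp20/Fsn* heads, against 37.1, 8.30 and 44.9 CPM in *Cbp20* heads (log2 fold change 1.80, SE 0.45, FDR 0.0065), and the amylase-like gene *tobi* had 61.5, 68.2 and 123 CPM in *Cbp20/Fsn* heads, against 47.4, 5.11 and 38.9 CPM in *Cbp20* heads (log2 fold change 1.48, SE 0.45, FDR 0.0197). *Cbp20* replicate 2 was far below its partners for both, and *tobi* did not pass without it (0.96) or without *Cbp20/Fsn* replicate 3. The blood-cell and fat-body glycoprotein gene *Glt* had 509, 444 and 456 CPM in *Cbp20/Fsn* heads, against 276, 254 and 323 CPM in *Cbp20* heads (log2 fold change 0.72, SE 0.10, FDR 2.03e-05). None of 16 tested hemocyte genes was past the fold threshold, but by the FDR alone 7 were higher and 1 lower (median log2 fold change 0.22). Among 31 tested odorant-binding proteins *Obp99a*, with 75, 66.1 and 77.3 CPM in *Cbp20/Fsn* heads, against 28, 20.3 and 37.4 CPM in *Cbp20* heads (log2 fold change 1.36, SE 0.18, FDR 2.20e-05), and *Obp99d* (1.72) rose and *Obp56c* fell (-1.82, FDR 0.0154; not without *Cbp20* replicate 1). *Amy-d*, an amylase gene and 1 of 3 tested midgut enzymes, had 11.7, 12.5 and 11 CPM in *Cbp20/Fsn* heads, against 4.42, 4.29 and 3.77 CPM in *Cbp20* heads (log2 fold change 1.49, SE 0.29, FDR 0.000993).

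No synaptic vesicle or active zone gene of 27 tested was past the fold threshold, but 16 were lower and none higher by the FDR alone (median log2 fold change -0.27, against 0.03; 11.8% of all genes were lower), and their summed level was 13854, 15331 and 14664 CPM in *Cbp20/Fsn* heads, against 17769, 16815 and 17536 CPM in *Cbp20* heads. Members named here were chosen after their values were seen. *brp*, the active zone scaffold, had 419, 506 and 471 CPM in *Cbp20/Fsn* heads, against 700.3, 668 and 707 CPM in *Cbp20* heads (log2 fold change -0.57, SE 0.15, FDR 0.0101), and *Trhn*, the enzyme for neuronal serotonin, had 15.6, 17 and 17.1 CPM in *Cbp20/Fsn* heads, against 25, 25.4 and 24.1 CPM in *Cbp20* heads (log2 fold change -0.59, SE 0.059, FDR 7.97e-07). The groups did not overlap for either gene. The transmitter genes *VGAT* (-0.34, FDR 0.000176), *VGlut* (-0.31, FDR 0.00899), *Gad1* (-0.26, FDR 0.00899) and *ChAT* (-0.25, FDR 0.0125) were lower too. Of 26 tested transmitter receptors 9 were lower and 2 higher by the FDR (median -0.24), the higher ones including *nAChRbeta3*, with 32.6, 35.3 and 31.7 CPM in *Cbp20/Fsn* heads, against 26, 30.5 and 27.1 CPM in *Cbp20* heads (log2 fold change 0.25, SE 0.092, FDR 0.047), and of 24 ion channels 10 were lower and 1 higher (median -0.26). Of 39 tested neuropeptide genes 5 were lower and 4 higher (median -0.01). Single libraries moved these counts: without *Cbp20/Fsn* replicate 1 there were 6 lower synaptic genes, 4 receptors and 1 channel, and without *Cbp20* replicate 1 there were 10, 6 and 4. The synaptic genes summed to 10200.3, 14629.6 and 13467 CPM in *Fsn* heads, against 16831, 16604 and 15722 CPM in Control GD heads, and *brp* had a log2 fold change of -0.62 there. Groups without the *Fsn* line also lay below the *Cbp20* libraries in this sum. *Cbp20/dlg1* heads had 15738, 15448 and 13160 CPM and Control KK heads 14712, 15482 and 15266 CPM. Which part of the difference belongs to the *Fsn* knockdown was not tested. Of 11 tested neuronal markers 5 were lower by the FDR (2 without *Cbp20/Fsn* replicate 1), not including *elav*, with 219, 259.8 and 251 CPM in *Cbp20/Fsn* heads, against 313, 278 and 301 CPM in *Cbp20* heads (log2 fold change -0.29, SE 0.13, FDR 0.0953). Of 14 tested glial markers 3 were higher and 2 lower by the FDR (median 0.01), where 17.4% and 11.8% of all genes were, and *repo* was at 0.005, FDR 0.97. No neuronal or glial marker was past the fold threshold, but 1 glial marker was differentially expressed and lower without *Cbp20/Fsn* replicate 1.

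Transcript length moved with these small differences. The median exonic length was 3991 bases for genes lower by the FDR and 1560 bases for genes higher by it, against 2036 bases for all tested genes with a length (10341, 97.9%), and across those genes the log2 fold change and length had a Spearman correlation of -0.42, which is a description over genes and not over replicates. Of the 2069 longest genes (4011 bases or more) 611 were lower and 85 higher, and of the 2072 shortest (1085 bases or less) 83 were lower and 487 higher, where 11.8% of all genes were lower and 17.4% higher. Median lengths were 4072 bases for the synaptic genes, 4906 for the receptors and 5299 for the channels. The cytoplasmic ribosomal proteins, with a median of 927 bases, went the other way: of 79 tested none was differentially expressed (log2 fold changes up to 1.48), 67 were higher and none lower by the FDR, where 17.4% and 11.8% of all genes were (median log2 fold change 0.34, with 43 without *Cbp20/Fsn* replicate 1 and 44 without *Cbp20* replicate 1), and they summed to 61376, 57882 and 59890 CPM in *Cbp20/Fsn* heads, against 46159, 47898 and 47675 CPM in *Cbp20* heads. The *Cbp20* libraries lay below every library of the other groups in this sum. The 445 differentially expressed genes were not long, with medians of 1373 bases for those higher and 1525 for those lower. None of 70 tested mitochondrial ribosomal proteins was past the fold threshold. The part of length in the neuronal and ribosomal differences was not tested.

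None of 20 tested genes of the *Fsn* ubiquitin ligase and Wallenda/JNK list was past the fold threshold, and 5 were lower by the FDR, *Fsn* among them. Among all genes 4.21% were past both thresholds and 11.8% were lower by the FDR alone. *hiw* had 149.9, 185 and 168 CPM in *Cbp20/Fsn* heads, against 263, 273 and 272 CPM in *Cbp20* heads (log2 fold change -0.69, SE 0.14, FDR 0.00114), and the kinase genes *msn* (-0.33, FDR 0.00745) and *hep* (-0.32, FDR 0.0127) and the axon degeneration gene *axed* (-0.30, FDR 0.011) were lower; these 4 were named after their values were seen, and the list's median length was 4026 bases. The ligase target *wnd* did not pass, with 123, 138 and 128 CPM in *Cbp20/Fsn* heads, against 143, 146 and 142 CPM in *Cbp20* heads (log2 fold change -0.15, SE 0.079, FDR 0.17), nor did the JNK phosphatase and reporter gene *puc* (-0.13, FDR 0.0982). In the cap-binding and small RNA list none of 18 tested was past the fold threshold, with *Cbp80* at 0.011, FDR 0.938 and *Ars2* at 0.069, FDR 0.455. Of 22 tested apoptosis genes only *Sid*, a stress-induced DNase gene, was past it, with 3.23, 5.35 and 3.61 CPM in *Cbp20/Fsn* heads, against 1.53, 0.892 and 1.86 CPM in *Cbp20* heads (log2 fold change 1.53, SE 0.30, FDR 0.000879), and the cell death gene *hid* was lower by the FDR (-0.44, FDR 0.016). With only *Sid* past it, the apoptosis list was near the share of all genes.

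The fast activity-regulated genes *Hr38* (-0.25, FDR 0.169) and *sr* (-0.20, FDR 0.175) did not pass, whereas both were lower in *Fsn* than in Control GD (-1.04 and -1.08). None of 13 clock, 30 photoreceptor, 19 eye pigment, 14 glial, 22 muscle or 15 antennal genes tested was past the fold threshold, where 4.21% of all genes were differentially expressed. By the FDR alone 3 clock genes were higher and 3 lower, and 4 eye pigment genes were higher and 2 lower. The counts were 9 and 7 for photoreceptor, 5 and 3 for muscle and 1 and 1 for antennal genes. Among all genes 17.4% were higher and 11.8% lower. Within these lists, and named after their values were seen, the clock genes *Clk*, with 46.1, 43.5 and 47.1 CPM in *Cbp20/Fsn* heads, against 34.4, 28.2 and 30.7 CPM in *Cbp20* heads (log2 fold change 0.55, SE 0.066, FDR 5.41e-06), and *cry* (0.44, FDR 4.57e-06) were higher while *vri* (-0.54, FDR 8.87e-05) and *tim* (-0.42, FDR 0.0126) were lower, and the time of day of collection was not given in the sources used here. The pteridine gene *Pu* was lower (-0.71, FDR 2.74e-06) and *Hn* (0.86, FDR 5.38e-06) and *ry* (0.58, FDR 2.20e-05) were higher. Of 39 neuropeptide genes only *CNMa* was past the threshold, with 4.09, 3.93 and 2.53 CPM in *Cbp20/Fsn* heads, against 9.41, 7.89 and 9.26 CPM in *Cbp20* heads (log2 fold change -1.32, SE 0.20, FDR 8.38e-05), while *Ilp2* was higher by 0.55, FDR 6.96e-05.

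Some low-level sensory receptors fell. The adjacent ionotropic receptor genes *Ir75a* (3L:17815570-17817921), with 0.186, 0.265 and 0.316 CPM in *Cbp20/Fsn* heads, against 1.93, 2.06 and 1.62 CPM in *Cbp20* heads (log2 fold change -2.86, SE 0.49, FDR 0.000251), and *Ir75b* (3L:17818073-17820193), with 0.409, 0.177 and 0.226 CPM in *Cbp20/Fsn* heads, against 2.06, 1.23 and 1.71 CPM in *Cbp20* heads (log2 fold change -2.56, SE 0.53, FDR 0.00149), fell together, as did the sweet receptor gene *Gr64a*, with 0.223, 0.0884 and 0.226 CPM in *Cbp20/Fsn* heads, against 0.919, 1.13 and 0.833 CPM in *Cbp20* heads (log2 fold change -2.39, SE 0.37, FDR 0.000106). The groups did not overlap for these 3 genes, whose *Cbp20/Fsn* values were near the floor of 3 counts (0.107 to 0.152 CPM in the 6 libraries). The fitted folds of such genes depend on the prior count. *Or59c* fell (-1.42, FDR 0.0424) but lost its call in 5 of the 6 fits with 1 library left out. Among 302 tested lncRNA genes 18 rose and 7 fell, where 2.85% and 1.36% of all genes did, and 3 to 10 fell with 1 library left out: 3 without *Cbp20/Fsn* replicate 1, *Cbp20* replicate 1 or *Cbp20* replicate 3, while 12 rose without *Cbp20* replicate 2.

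The genes called here were set beside *Fsn* over Control GD, which had 254 differentially expressed genes (2.41%; 1.09% higher, 1.32% lower; 38.2% with the FDR alone). Of the 301 higher genes 33 were also higher there (11% of these, 28.7% of the 115 higher there), and of the 144 lower genes 21 were also lower (14.6%, and 15.1% of 139), while 14 and 3 went the opposite way. At any size, 58.1% of the higher genes had a positive fold change in *Fsn* over Control GD, against 53.4% of all genes, and 75.7% of the lower genes a negative one, against 46.6%. The median log2 fold changes of the called genes there were 0.17 and -0.44. The difference between the 2 effects of adding line 26577 was past both thresholds in 274 genes (2.6%; 6.72% with the FDR alone). *CG18473*, chosen after its values were seen, rose in both settings, with 5.13, 4.29 and 3.57 CPM in *Cbp20/Fsn* heads, against 1.49, 1.37 and 1.47 CPM in *Cbp20* heads (log2 fold change 1.59, SE 0.28, FDR 0.00038), and 5.10, 4.71 and 3.73 CPM in *Fsn* heads, against 0.361, 0.597 and 0.673 CPM in Control GD heads (3.03); in *Cbp20/dlg1* heads it had 0.336, 0.407 and 0.901 CPM.

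Control GD and Control KK, the 2 control lines crossed to *Elav-GAL4*, differed in 355 genes (3.36%, with 1.72% higher and 1.64% lower, and 20.9% with the FDR alone). Of the 301 higher genes 52 were also higher in Control GD (17.3%, and 28.6% of the 182 there), and of the 144 lower genes 30 were also lower (20.8%, and 17.3% of 173), with 10 and 1 opposite. Across all 10558 genes the log2 fold changes of *Cbp20/Fsn* over *Cbp20* had a Pearson correlation of 0.22 with Control GD over Control KK and 0.063 with *Fsn* over Control GD, as descriptions over genes. *CG31036*, with 30.7, 32.3 and 27.4 CPM in *Cbp20/Fsn* heads, against 12.1, 13.3 and 12.9 CPM in *Cbp20* heads (log2 fold change 1.24, SE 0.068, FDR 4.60e-10), showed a like background difference (1.07). For such genes the GD chromosomes and the *Fsn* hairpin cannot be told apart.

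**Figure D5:**
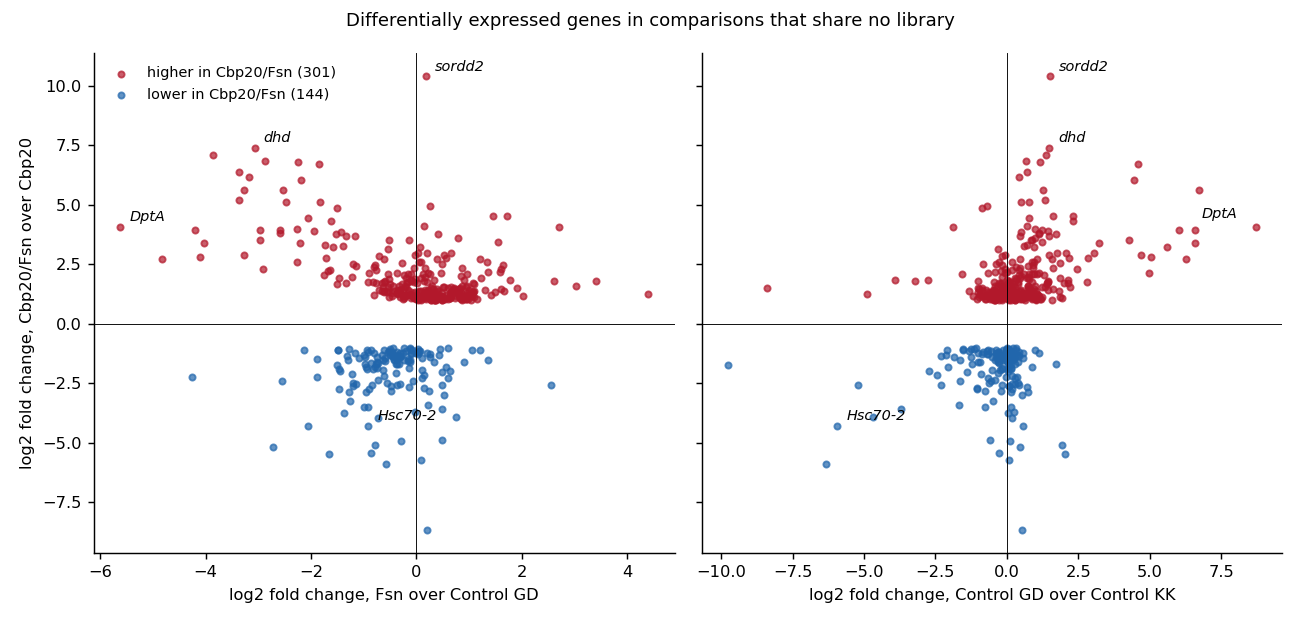
Log2 fold change of *Cbp20/Fsn* over *Cbp20* (y axis) for the 301 higher (red) and 144 lower (blue) genes, against that of *Fsn* over Control GD (left) and of Control GD over Control KK (right), which share no library with it. Most points lie near the vertical zero line; *DptA* is far to the left on the left panel and far to the right on the right panel, and *Hsc70-2* is far to the left on the right panel.

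The second double knockdown, *Cbp20/dlg1*, shares the *Cbp20* line and a GD line. Against *Cbp20* it had 459 differentially expressed genes (4.35%), and since both comparisons use the same *Cbp20* libraries, only values side by side are given: the median log2 fold changes were 1.47 in *Cbp20/Fsn* and 1.27 in *Cbp20/dlg1* for the 301 genes, and -1.59 and -1.56 for the 144. *Cbp20/Fsn* against *Cbp20/dlg1* directly gave 36 genes (0.341%); this comparison shares the *Cbp20/Fsn* libraries with the one against *Cbp20*, so that values over both are again side by side, for genes chosen after they were seen. Over *Cbp20* and over *Cbp20/dlg1* the log2 fold changes were 3.17 and 2.53 for *Cyp6a17*, 3.52 and 4.04 for *Dnaaf3*, 3.24 and 1.43 for *Cpr64Ac*, 1.09 and 1.36 for *Ugt35C1* and -3.90 and -1.31 for *CG11700*. *Scp1*, a calcium-binding protein gene, had 366, 330.5 and 400.2 CPM in *Cbp20/Fsn* heads, against 135, 159 and 125 CPM in *Cbp20* heads, and 178, 125 and 204 CPM in *Cbp20/dlg1* heads. *Crys*, a protein of the corneal lens, had 14.5, 14.7 and 13.3 CPM in *Cbp20/Fsn* heads, against 104, 43.6 and 69.4 CPM in *Cbp20* heads (log2 fold change -2.35, SE 0.24, FDR 8.46e-07), and 41.2, 61.7 and 38.8 CPM in *Cbp20/dlg1* heads. The *Cbp20/Fsn* libraries of *Scp1* lay above and those of *Crys* below every library of both other groups. By chromosome arm, 2.76% of 1848 tested genes on 2L, 4.01% of 2097 on 2R, 5.16% of 2016 on 3L, 4.67% of 2567 on 3R and 4.28% of 1706 on X were differentially expressed.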

How the data were processed

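RNA sequencing of whole heads gave 3 libraries per group. Per the labels and the study's methods, the authors trimmed reads with Trimmomatic 0.36, aligned them with TopHat2 2.1.1 and counted them per gene with HTSeq 0.6.1, and deposited raw read counts for each sequencing batch, with no normalization. The 5 HTSeq summary rows were dropped from library sizes and tests (27.8 to 34.1% of all counts in the 6 libraries), and the 2 or 3 batches of a library were summed. Counts were filtered with filterByExpr, scaled by TMM and fitted in edgeR 4.0.16 (R 4.3.3; legacy quasi-likelihood) with all 21 libraries and 1 coefficient per group. FDRs are Benjamini-Hochberg adjusted over 10558 genes, and SE is the log2 fold change over the root of F. DESeq2 1.42.0, other filters, batches and left-out libraries were alternatives. The scripts were tested on simulated data. Gene positions and exonic lengths are from BDGP6.54, in which 17253 of 17559 identifiers had a symbol. Plots add 0.5 CPM before logs. The members and gene lists were chosen with earlier results of these data known. Named genes were the 2 targets, *w*, *y* and *tio*, the 12 largest rises and 12 largest falls without overlap (mean of 5 CPM or more), differentially expressed list members, genes the study names, and genes with the smallest FDR for the difference of *Fsn* effects; other genes, list members below the threshold included, were chosen after their values were seen. Column headers of the *Cbp20/Fsn* tables give a line number for *Fsn* that differs from the 26577 of the labels. Listed symbols that the name search did not match were left out of the lists, among them *nos*, *vas*, *Drs*, *Mcm3* and *Orc1*. Identifiers without a symbol could not enter a list by name, so counts of list members can be incomplete. The counts hold *nos* as *nanos*, which was higher and kept its call with any 1 library left out. With 3 against 3 an exact permutation test cannot go below 0.10, so none was used. The strand setting of the counting was not given in the sources used here, so overlapping and antisense genes are uncertain. Intervals and floors cover counting error only.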

Additional observations from a re-analysis of the deposited data

Results flagged for a closer look

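For 274 genes (2.6% of those tested) the change of *Cbp20/Fsn* over *Cbp20* differed from that of *Fsn* over Control GD in edgeR's quasi-likelihood test of the difference itself (FDR under 0.05 and over 1 log2 unit). The values below are (*Cbp20/Fsn* minus *Cbp20*) minus (*Fsn* minus Control GD) on the log2 scale, for the genes named in the report. Among transgene markers the difference was -2.42 for *w* and -6.36 for *Hsp70Bb*, whose *Fsn* over Control GD changes were large. Genes that rose evenly on top of the *Cbp20* knockdown had differences of 10.24 for *sordd2*, 5.04 for *CG33177*, 3.70 for *Cyp6a17*, 3.36 for *Sardh*, 2.82 for *CG3699*, 2.79 for *Osi2*, 2.17 for *Sid*, 1.91 for *Srg3* and 1.36 for *CG31036*. The values for *sordd2* and *dhd* depend on the prior count, since few counts were seen in most of these groups. Genes that were high in 1 *Cbp20/Fsn* library and lower in *Fsn* than in Control GD had differences of 9.71 for *DptA*, 8.16 for *AttC*, 7.44 for *DptB*, 6.92 for *Mtk* and 5.60 for *CG4757*, and the germline gene *dhd* had 10.48. Among genes that fell, the difference was -5.81 for *l(3)mbn*, -3.82 for *CG5172*, -4.56 for *CG13043*, -4.64 for *dyw*, -4.65 for *CG11700*, -3.37 for *Hsc70-2*, -3.23 for *CG13722*, -2.36 for *Cpr97Ea* and -1.59 for *Cpr76Bd*. *CG34195* had -2.54, with 5.46, 4.73 and 5.37 CPM in *Cbp20/Fsn* heads, against 7.0, 5.76 and 6.32 CPM in *Cbp20* heads, and 5.39, 5.0 and 4.57 CPM in *Fsn* heads, against 1.22, 1.08 and 0.860 CPM in Control GD heads.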

How the results depend on the processing

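Of the alternatives for the 445 genes of *Cbp20/Fsn* over *Cbp20*, RLE scaling gave 440, DESeq2 434, edgeR 4 estimation 439, no filter on low counts 500, the likelihood ratio test 460, the 2 groups alone 366, the first batch of each library 351 and an FDR of 0.01 336. At least 10 counts in every library gave 256 and no fold threshold 3087; leaving out 1 library gave 366 to 515. Pairs of libraries were left out as alternatives chosen after seeing the data, which gave 276 without *Cbp20/Fsn* replicates 1 and 3 and 272 without *Cbp20* replicates 1 and 3; the lone library is assumed to vary like the other groups. For *Fsn* over Control GD (254) the values were 131 with 10 counts, 164 with the first batch, 4035 with no fold threshold and 175 to 314 with 1 library left out; for Control GD over Control KK (355) they were 184, 229, 2207 and 316 to 343. For the difference of *Fsn* effects (274) they were 167, 164, 709 and 208 to 319, with 177 from the groups compared alone, 141 at an FDR of 0.01, 141 without *Cbp20/Fsn* replicates 1 and 3 and 120 without *Cbp20* replicates 1 and 3. With the replicate number as a block the counts were 429, 253, 354 and 261; same-numbered *Cbp20/Fsn* and *Cbp20* libraries did not deviate together (mean correlation -0.17 over 3 pairs), so the block was not used elsewhere. Signs reversed for *Dro* (-1.19 without *Cbp20/Fsn* replicate 2, up to 3.30 without *Cbp20/Fsn* replicate 1) and, without *Cbp20/Fsn* replicates 1 and 3, for *AGO3* (-0.17), *CycA* (-1.89), *Hsp27* (-0.084), *Mcm2* (-0.094), *Mcm5* (-0.022), *PCNA* (-0.43), *RnrS* (-0.036), *gnu* (-0.0063), *krimp* (-0.61), *mad2* (-0.53), *mtrm* (-0.069), *osk* (-0.47), *piwi* (-0.17), *png* (-0.75), *stg* (-0.68) and *yl* (-0.45). Over the 139 named genes and the alternatives run, 2151 values kept their direction and side of the threshold, 341 lost the call, 15 gained it and 17 reversed; the causes were not tested. A difference under 3 counts in a library was not detectable at this depth.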
